A study of Rattus norvegicus with 65 samples.

Results

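The 10 genes described here carry calcium into, through and out of the sarcoplasmic reticulum (SR) of the heart muscle cell, and they are 10 of the 14554 genes in the count table. They were chosen by name: Ryr2, Casq2, Trdn, Asph, Jph2 and Hrc on the release side, Atp2a2, Pln and Sln on the uptake side, and Slc8a1 at the cell surface. All 10 were found, 1 row each. Their transcripts were counted in 65 libraries of polyA RNA from primary neonatal rat cardiomyocytes, kept for 6 or 24 h in 10 mM 5FU (5-fluorouracil, an antimetabolite), 2.5 mM Ace (acetaminophen, a painkiller) or 1.25 µM Dox (doxorubicin, an anthracycline). Controls received vehicle alone, at 1% DMSO for 5FU (DMSO1) and 0.25% DMSO for both Ace and Dox (DMSO2), so that Ace and Dox share their control libraries. There were 7 libraries each of Ace at 24 h, Dox at 6 h and 24 h, and DMSO2 at 6 h and 24 h, and 6 libraries in each of the other 5 groups. All cells were serum starved overnight before exposure and stayed without serum during it. Every well was seeded from 1 pool of cells of 3 litters, so a group's libraries are sister cultures, and p-values measure the spread between such cultures, not between animals. Rat strain and sex are not in the labels, and neonatal cells in culture lack the load and the mature membrane system of the adult heart.

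In a heart muscle cell, calcium that enters through surface channels opens the ryanodine receptor, and the SR releases its store onto the myofilaments. The SR pump then takes the calcium back up under the brake of phospholamban, while the sodium-calcium exchanger removes across the surface membrane what came in. Inside the SR, calsequestrin buffers the store and is tied to the release channel by triadin and junctin, and junctophilin holds the SR against the surface membrane.

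Library totals ran from 14332827 to 25738297 counts. Among the libraries, number 1 of DMSO1 at 24 h, number 1 of 5FU at 6 h and number 7 of Dox at 24 h lay farthest from the mean of their group, at root mean square log2 differences of 0.391, 0.372 and 0.368 over all genes. The numbers only name libraries. The cardiomyocyte markers were present in every library, with 9 of the 10 listed genes in the table (Ttn was not analysed here) and their summed level from 12830.0 to 17850.0 CPM (counts per 1e6) in Dox at 24 h and from 37830.0 to 49960.0 CPM in its control. Markers of cardiac fibroblasts were present too, at 15100.0 to 18890.0 CPM in DMSO2 at 24 h and 1917 to 4064 CPM in Dox at 24 h. The cultures were therefore mixed, and in bulk RNA fewer cardiomyocytes and less RNA per cardiomyocyte cannot be told apart. In separate cultures, the paper reports lower viability after the longer exposure to each drug at the chosen concentrations. It reports a significant rise in cell death for Dox alone after that exposure. The part of cell death in the calcium gene values was not tested. Levels below are CPM scaled with trimmed mean of M-values (TMM) factors. They are compared between groups for 1 gene, not between genes, since transcript lengths were not used.

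Promoter sequence is shown for 4 members that behaved differently from each other at 24 h in Dox: Ryr2, Atp2a2 and Pln, which were 8.55 to 13.7 times lower than in the control, and Casq2, which was 1.36 times lower. Each line gives the 250 bases before the RefSeq gene start in the rat assembly GRCr8 on the plus strand, 5′ to 3′. Capitals mark matches to the E box CANNTG, to the GATA core TGATAA and, in Casq2, to the MEF2 consensus.
Ryr2, chr17:63081277-63081526: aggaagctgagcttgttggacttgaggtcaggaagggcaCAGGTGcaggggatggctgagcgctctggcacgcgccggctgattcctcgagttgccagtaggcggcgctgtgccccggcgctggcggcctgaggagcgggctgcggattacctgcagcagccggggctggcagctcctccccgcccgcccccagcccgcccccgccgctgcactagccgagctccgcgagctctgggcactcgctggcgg
Atp2a2, chr12:39733269-39733518: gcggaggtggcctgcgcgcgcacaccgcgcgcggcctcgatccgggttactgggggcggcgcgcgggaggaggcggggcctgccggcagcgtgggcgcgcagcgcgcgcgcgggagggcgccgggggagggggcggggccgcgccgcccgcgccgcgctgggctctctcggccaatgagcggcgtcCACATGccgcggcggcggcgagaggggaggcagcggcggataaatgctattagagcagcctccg
Pln, chr20:33172244-33172493: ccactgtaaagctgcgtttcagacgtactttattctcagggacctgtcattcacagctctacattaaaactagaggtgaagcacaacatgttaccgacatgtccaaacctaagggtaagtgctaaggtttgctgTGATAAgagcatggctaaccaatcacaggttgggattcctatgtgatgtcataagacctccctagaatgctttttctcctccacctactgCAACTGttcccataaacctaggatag
Casq2, chr2:192214306-192214555: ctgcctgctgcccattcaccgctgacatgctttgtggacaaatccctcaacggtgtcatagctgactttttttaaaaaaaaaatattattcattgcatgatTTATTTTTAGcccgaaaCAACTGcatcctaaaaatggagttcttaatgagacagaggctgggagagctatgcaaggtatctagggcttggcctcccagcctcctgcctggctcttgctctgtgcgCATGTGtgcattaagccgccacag

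The table of promoters held 8 of the 10 members, while Sln and Asph are named only. The Ryr2 and Atp2a2 windows were rich in G and C (72% and 80%), with 1 E box each, 211 and 64 bases before the start. The Pln and Casq2 windows had 44% and 46.4% G and C. Pln held a GATA core 116 bases and an E box 26 bases before its start. Casq2 held the MEF2 consensus at 149 bases and E boxes at 132 and 24 bases. Of 33469 rat promoters of the same length, searched on both strands, 65.5% held CANNTG, 16.9% held AGATAA or TGATAA, and 2.96% held the MEF2 consensus. TATAAA (12.9% of promoters), CATTCC (12.1%), CACGTG (5.59%, also counted in CANNTG) and the CArG box (1.5%) had no match in the 8 windows. Slc8a1 held 1 E box, and Jph2, Trdn and Hrc had no match to any of these motifs. A match is a description of letters and was not tested for binding.

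In the controls, the calcium genes were not constant over the day in culture. From 6 to 24 h, 6 of 10 rose and 2 of 10 fell at a false discovery rate (FDR) below 0.01 in the edgeR quasi-likelihood test, where 32.7% of all genes rose and 31.9% fell. The log2 change, averaged over both vehicles, was 0.85 ± 0.072 (SE) for Trdn, 0.85 ± 0.063 for Hrc and 0.82 ± 0.081 for Ryr2, rises of 1.8, 1.8 and 1.76 times. Asph (0.55), Atp2a2 (0.55) and Pln (0.30) also rose, whereas Jph2 (-0.31) and Slc8a1 (-0.30) fell. Casq2 (0.12) and Sln (-0.22) did not pass, at edgeR FDR = 0.04 and 0.067. Each drug effect below is therefore read against the control of the same time.

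The 2 vehicle controls differed from each other at 6 h. Atp2a2 (-0.28 ± 0.072, edgeR FDR = 0.0022) and Pln (-0.38 ± 0.075) were lower in 1% than in 0.25% DMSO, while Casq2 (0.39 ± 0.077) and Jph2 (0.66 ± 0.11) were higher, where 6.60% of all genes were called lower and 9.87% higher. Jph2 spanned 195 to 404 CPM in DMSO1 and 192 to 216 CPM in DMSO2, so its 6 h level in DMSO1 was both high and scattered. Without library 2 of DMSO1 at 6 h, Atp2a2 was -0.25 with an edgeR FDR of 0.011. At 24 h none of the 10 was called between the vehicles in edgeR (background 0.295% lower and 0.137% higher), 4 had an unadjusted p below 0.05, and the DESeq2 Wald test called 1, Atp2a2 (-0.29).

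Across the 6 drug comparisons, calls on the 10 genes were mostly decreases. At 6 h, 5FU lowered 4 of 10 and raised 0 (background 24.5% lower, 23.4% higher), Ace lowered 3 and raised 0 (15.2% and 16.5%), and Dox lowered 5 and raised 2 (32.7% and 31.5%). At 24 h, 5FU lowered 8 and raised 0 (27.8% and 28%), Ace lowered 8 and raised 0 (19.1% and 18.2%), and Dox lowered 9 and raised 0 (41% and 40.4%). Pln, which encodes the brake on the pump, was called lower in 6 of 6 comparisons. Slc8a1 and Jph2 were called lower in 5 of 6, and Sln, the least abundant in counts, in 2 of 6. The median log2 fold change of the 10 genes at 24 h was -0.56 in 5FU, -0.41 in Ace and -2.69 in Dox, beside medians of all genes of -0.0094, -0.00082 and 0.0028.

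**Figure D1:**
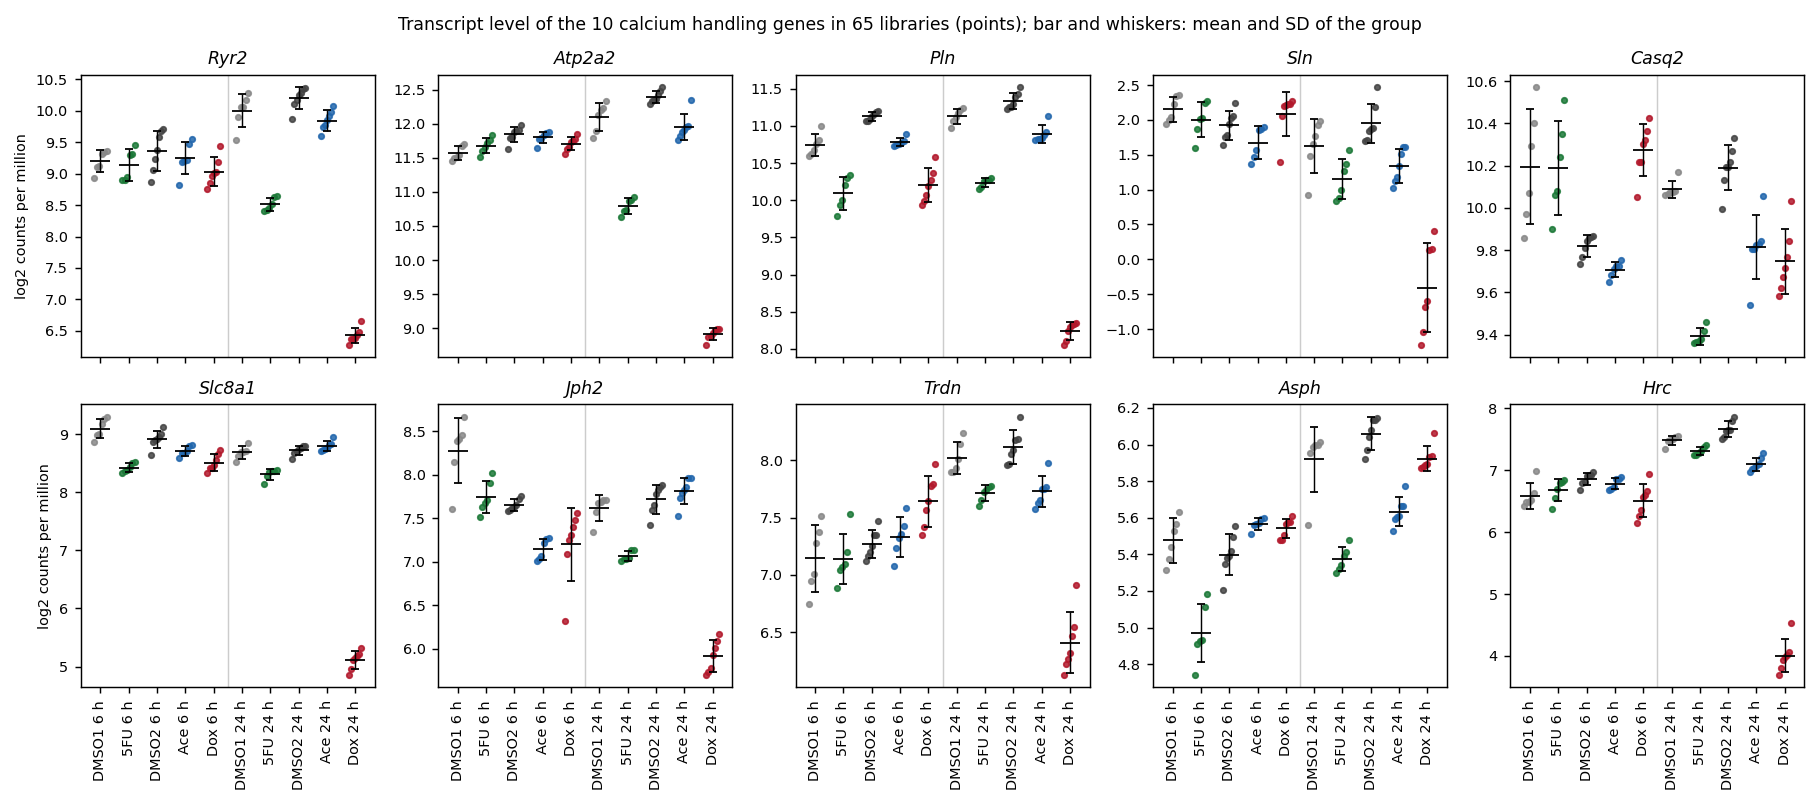
Level of each of the 10 genes in the 65 libraries, as log2 CPM on the y axis (1 point per library, bar and whiskers for the mean and SD of the group, 6 h to the left of the line and 24 h to the right). The y axes differ between genes. The 7 libraries of Dox at 24 h lie apart below all others for Ryr2, Atp2a2, Pln, Sln, Slc8a1, Jph2 and Hrc, and among the controls for Asph.

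**Figure D2:**
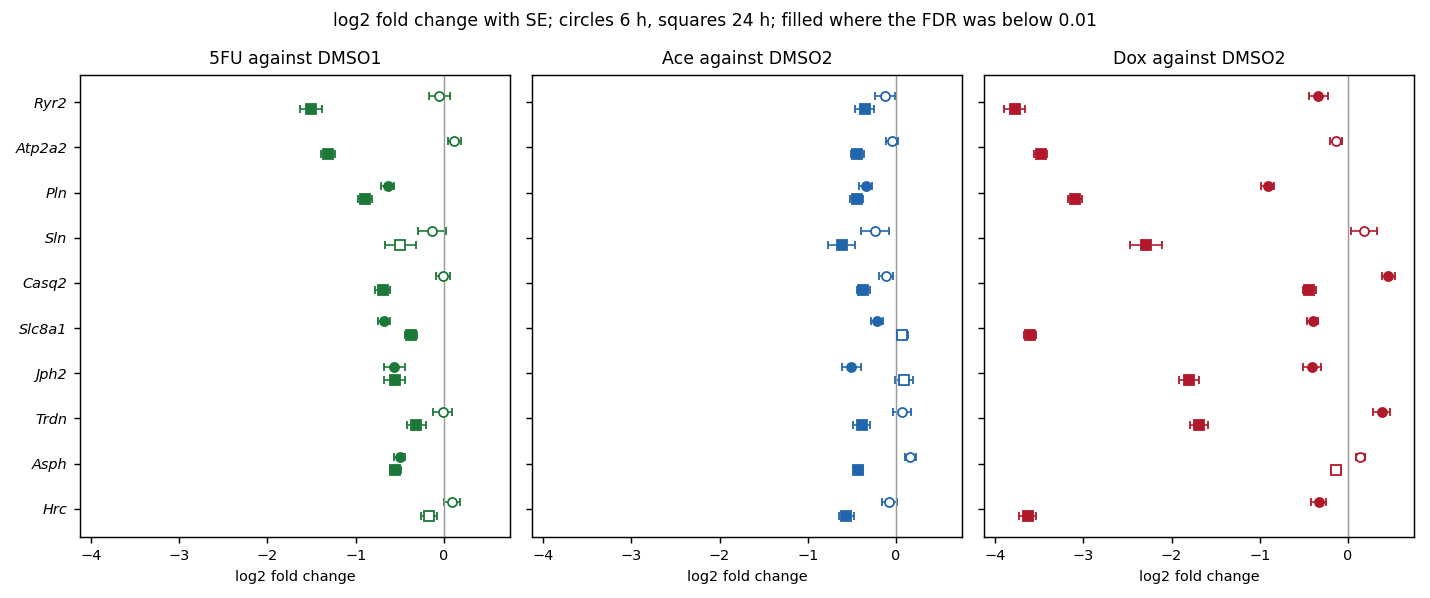
Log2 fold change of each gene against its own vehicle control (x axis, with SE), with 6 h as circles and 24 h as squares, filled where the edgeR FDR was below 0.01. In Dox, the 24 h squares of Ryr2, Atp2a2, Pln, Slc8a1 and Hrc lie below -3 while those of Casq2 and Asph lie above -0.5.

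Ryr2 encodes the release channel of the SR. Its lowest, median and highest level was 938, 1222 and 1319 CPM in DMSO2 at 24 h and 77.8, 83.4 and 100.5 CPM in Dox at 24 h. All 7 Dox libraries lay below every other library. The log2 fold change was -3.78 ± 0.12 (SE, edgeR FDR = 1e-37), 13.7 times lower. In 5FU at 24 h, Ryr2 was at 338, 357 and 401 CPM against 746, 1069 and 1247 CPM in DMSO1, with no overlap and a change of -1.51 ± 0.12 (edgeR FDR = 4.7e-17), 2.84 times lower. Ace at 24 h gave 772, 923 and 1076 CPM, overlapping its control, and a change of -0.36 ± 0.11 (edgeR FDR = 0.0052). That call was lost in 6 of 14 fits without 1 library, namely Ace library 1, 3 or 5 or DMSO2 library 1, 2 or 7 (-0.34 to -0.31), and with scaling by library total alone (-0.30, edgeR FDR = 0.027).

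At 6 h the release channel moved little. Ryr2 was at 433, 516 and 695 CPM in Dox and 466, 664 and 839 CPM in DMSO2, overlapping groups, with a change of -0.34 ± 0.11 (edgeR FDR = 0.0049). The call was lost in 6 of 14 fits without 1 library (DMSO2 library 4, 5 or 6, Dox library 3, 6 or 7; -0.32 to -0.28) and when only the compared groups were fitted (-0.33, edgeR FDR = 0.023). In 5FU (-0.055) and Ace (-0.13) at 6 h it did not pass. In order of median, Ryr2 ran from DMSO2 at 24 h down to Dox at 24 h, and neighbours in that order overlapped except below Dox at 6 h, where 5FU at 24 h and then Dox at 24 h each stood apart.

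Casq2 encodes cardiac calsequestrin, the buffer of the SR store. It was among the least changed of the 10 in Dox at 24 h. Its level was 766, 841 and 1047 CPM in Dox and 1020.0, 1172 and 1286 CPM in DMSO2, groups that overlapped at their edges, with a change of -0.44 ± 0.075 (edgeR FDR = 2.7e-07), 1.36 times lower. At 6 h in Dox it was higher, at 1063, 1262 and 1376 CPM against 851, 917 and 934 CPM, with no overlap and a change of 0.46 ± 0.074 (edgeR FDR = 2.1e-07). In 5FU at 24 h it was at its lowest of the 10 groups, 656 to 704 CPM against 1069 to 1152 CPM (-0.70 ± 0.081, edgeR FDR = 2.8e-11), and 5FU at 24 h did not overlap the next group up. Ace at 24 h gave -0.37 (edgeR FDR = 2.7e-05), while the 6 h values in 5FU (-0.011) and Ace (-0.11) did not pass.

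Trdn encodes triadin, which anchors calsequestrin to the release channel. In Dox it rose at 6 h and fell at 24 h. It was at 162, 200.2 and 251 CPM against 139, 153 and 177 CPM at 6 h, overlapping (0.38 ± 0.098, edgeR FDR = 0.00047), and at 70.1, 79.7 and 121 CPM against 249, 272 and 332 CPM at 24 h, with no overlap (-1.69 ± 0.10, edgeR FDR = 5.3e-24). The 6 h rise was not called with scaling by library total alone (0.23, edgeR FDR = 0.024), a scaling that moved the median of all genes by -0.153. Trdn fell in Ace at 24 h, at 191, 215 and 252 CPM (-0.39, edgeR FDR = 0.00064). In 5FU at 24 h, at 194, 213 and 219 CPM against 238, 251 and 302 CPM, the groups did not overlap, and the change of -0.31 ± 0.11 (edgeR FDR = 0.0076) lay near the threshold. It was lost in 9 of 12 fits without 1 library (-0.32 to -0.27), all but those without 5FU library 1 or DMSO1 library 2 or 5, and without DMSO1 library 1 together with Dox library 7 (-0.25, edgeR FDR = 0.027).

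Asph was the member nearest its control in Dox at 24 h. The gene gives aspartate beta-hydroxylase, junctin and junctate by alternative transcripts, and gene counts cannot tell these apart, so the values do not belong to junctin alone. In Dox at 24 h its level was 58.6, 59.4 and 66.9 CPM and in DMSO2 60.5, 67.6 and 70.7 CPM, overlapping groups with a change of -0.14 ± 0.054 (edgeR FDR = 0.016). It passed without DMSO2 library 2 (-0.16, edgeR FDR = 0.0067) and with the compared groups only (edgeR FDR = 0.0077). Asph fell in 5FU at both times, from 39.8 to 49.7 to 26.8 to 36.4 CPM at 6 h and from 47.1 to 64.7 to 39.4 to 44.5 CPM at 24 h, with no overlap at either time. The changes were -0.50 ± 0.06 (edgeR FDR = 1.1e-10) and -0.55 ± 0.059 (edgeR FDR = 2.5e-12). In Ace at 24 h it fell too, to 46.1 to 54.8 CPM (-0.43, edgeR FDR = 9.2e-10), and at 6 h it was at 0.16 in Ace and 0.14 in Dox, short of the threshold (edgeR FDR = 0.016 and 0.02). Both values passed without DMSO2 library 5 (0.19 and 0.17, edgeR FDR = 0.0067 and 0.0074) and without Dox library 7 and DMSO1 library 1 at 24 h (0.18 and 0.15). The Ace value also passed with edgeR's own filter on low counts (0.18, edgeR FDR = 0.0097) and with the compared groups only (0.17, edgeR FDR = 0.008). The Dox value passed with DESeq2 size factors (0.17, edgeR FDR = 0.0035) and in the DESeq2 Wald test (0.17, adjusted p = 0.0029), but was -0.013 with scaling by library total.

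Jph2 encodes junctophilin 2, the tether between the SR and the surface membrane. It was lower at 6 h in every drug. Against DMSO2 at 192, 198 and 216 CPM, Ace was at 129, 141 and 154 CPM and Dox at 80.2, 159 and 189 CPM, and neither overlapped the control. The changes were -0.51 ± 0.11 (edgeR FDR = 0.00017) and -0.41 ± 0.11 (edgeR FDR = 6e-04). In 5FU at 6 h it was at 183, 207 and 259 CPM against 195, 338 and 404 CPM, overlapping, with -0.56 ± 0.12 (edgeR FDR = 2.9e-05). That DMSO1 control was itself higher than DMSO2 (0.66 ± 0.11), and the 5FU range took in the DMSO2 range. By 24 h the drugs had diverged. Dox was at 52.1, 60.7 and 72.2 CPM against 172, 220.1 and 236 CPM (-1.80 ± 0.11, edgeR FDR = 3.6e-23), 3.48 times lower, 5FU was at -0.56 (edgeR FDR = 2.8e-05), and Ace was at 0.091 (edgeR FDR = 0.51), its libraries at 184 to 250.3 CPM overlapping the control.

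Hrc encodes the histidine-rich calcium-binding protein of the SR lumen, a partner of triadin and of the pump. In Dox at 24 h it was at 13, 15.8 and 23.2 CPM against 181, 200.5 and 231 CPM, the largest fall after that of Ryr2 by log2 fold change among the 10 in that comparison (-3.63 ± 0.097, edgeR FDR = 3.5e-42, 12.4 times lower). Ace at 24 h lowered it to 126, 133 and 155 CPM, with no overlap (-0.57 ± 0.084, edgeR FDR = 7e-08). In 5FU at 24 h, at 152, 157 and 169.5 CPM against 162, 181 and 187 CPM, the change of -0.17 ± 0.091 did not pass (edgeR FDR = 0.087). When only the 2 compared groups were fitted it passed, at -0.18 with an edgeR FDR of 0.0023. At 6 h it was called in Dox alone (-0.33, edgeR FDR = 0.00047), with 0.091 in 5FU and -0.075 in Ace.

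Atp2a2 encodes the SR calcium pump SERCA2, which refills the store. It did not pass the test in any drug at 6 h (0.12 in 5FU, -0.046 in Ace and -0.14 in Dox), and it fell in all 3 drugs at 24 h. Dox was at 434, 488 and 508 CPM against 5023, 5252 and 5927 CPM, with all 7 Dox libraries below every other library. The change was -3.48 ± 0.076 (edgeR FDR = 4.4e-47), 11.2 times lower. 5FU was at 1585, 1787 and 1952 CPM against 3545, 4608 and 5153 CPM (-1.31 ± 0.075, edgeR FDR = 3.3e-23), 2.49 times lower with no overlap. Ace was at 3473, 3862 and 5226 CPM (-0.44 ± 0.069, edgeR FDR = 2.4e-07), and its highest library, number 7, reached into the control range. With scaling by library total alone, Atp2a2 in Dox at 6 h passed (-0.29, edgeR FDR = 0.00029).

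Pln encodes phospholamban, which slows the pump until it is phosphorylated. It was already lower at 6 h. It was at 882, 1105 and 1292 CPM in 5FU against 1543, 1678 and 2043 CPM in DMSO1, and at 978, 1166 and 1529 CPM in Dox and 1699, 1739 and 1898 CPM in Ace against 2134, 2247 and 2344 CPM in DMSO2. None of the 3 drug groups overlapped its control. The 6 h changes were -0.64 ± 0.078 in 5FU (edgeR FDR = 2.1e-10), -0.35 ± 0.075 in Ace (edgeR FDR = 0.00013) and -0.91 ± 0.073 in Dox (edgeR FDR = 1.3e-17). At 24 h Pln was at 1135, 1227 and 1263 CPM in 5FU against 2014, 2268 and 2429 CPM, and at 1803, 1832 and 2253 CPM in Ace and 266, 313 and 325 CPM in Dox against 2392, 2523 and 2936 CPM. Those are falls of 1.86, 1.36 and 8.55 times (log2 -0.90 ± 0.078, -0.45 ± 0.072 and -3.10 ± 0.078, edgeR FDR = 1.4e-15, 4.4e-07 and 1.4e-43).

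Sln encodes sarcolipin, another small inhibitor of the pump known mainly from atrial muscle. It was close to the limit of detection, with 8 to 104 counts per library and 1 library under 10 counts, so its values carry more counting error than those of the other 9. In Dox at 24 h it was at 0.429, 0.662 and 1.33 CPM against 3.25, 3.67 and 5.53 CPM, without overlap (-2.29 ± 0.18, edgeR FDR = 3.3e-18, 4.88 times lower). In Ace at 24 h it was at 2.04, 2.52 and 3.07 CPM (-0.62 ± 0.15, edgeR FDR = 0.00061). The 5FU value at 24 h (-0.50 ± 0.17, edgeR FDR = 0.01) was not called but passed without 5FU library 2 (-0.58) or DMSO1 library 6 (-0.59), and in the DESeq2 Wald test (adjusted p = 0.0056). At 6 h Sln did not pass in any drug (-0.14, -0.24 and 0.18 in 5FU, Ace and Dox). Of the 5 atrial markers in the table, 2 were called higher and 3 lower in Dox at 24 h, and Kcna5 among them had 0 to 27 counts per library.

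Slc8a1 encodes the sodium-calcium exchanger NCX1, the main route of calcium out of the heart cell. It was at 29.1, 35.4 and 40 CPM in Dox at 24 h against 379.8, 431 and 446 CPM in DMSO2 (-3.61 ± 0.071, edgeR FDR = 2.5e-49), 12.2 times lower and apart from all other groups. In the other drugs the early change was the larger by value. 5FU gave 324, 341 and 367 CPM against 465, 546 and 627 CPM at 6 h (-0.68 ± 0.068, edgeR FDR = 3.4e-13) and 281, 328 and 335 CPM against 369, 416 and 464 CPM at 24 h (-0.38 ± 0.068, edgeR FDR = 2.3e-06), with no overlap at either time. Dox at 6 h was at 324 to 425 CPM against 399 to 557 CPM, overlapping (-0.40, edgeR FDR = 6.7e-08). Ace gave -0.21 at 6 h (edgeR FDR = 0.006) and 0.069 at 24 h (edgeR FDR = 0.38). The 6 h Ace call was lost in 8 of 13 fits without 1 library (Ace library 2, 3, 5 or 6, DMSO2 library 1, 4, 5 or 6; -0.21 to -0.18).

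Whether a drug's effect at 24 h differed from that at 6 h was tested in the same model. In Dox all 10 genes were lower at 24 h relative to 6 h, where 30.8% of all genes were lower and 34% higher. The differences in log2 fold change ran from -3.44 for Ryr2, -3.35 for Atp2a2, -3.30 for Hrc and -3.20 for Slc8a1, through -2.46 for Sln, -2.18 for Pln, -2.07 for Trdn and -1.39 for Jph2, to -0.89 for Casq2 and -0.28 for Asph. Asph alone lost its call with scaling by library total (-0.078, edgeR FDR = 0.39), which moved the median of all genes by 0.200. In 5FU, Ryr2 (-1.45 ± 0.17), Atp2a2 (-1.43 ± 0.11) and Casq2 (-0.69 ± 0.11) were lower at 24 h relative to 6 h, none of them called at 6 h, and the Slc8a1 decrease was smaller at 24 h (0.30 ± 0.096), where 19.2% of all genes were lower and 20.3% higher. The Slc8a1 difference was lost in 9 of 24 fits without 1 library (5FU library 1 or 4 at 24 h or 1, 2 or 3 at 6 h, DMSO1 library 1 at 24 h or 1, 2 or 6 at 6 h; 0.26 to 0.29) and with the compared groups only (edgeR FDR = 0.016). In Ace, Atp2a2 (-0.39 ± 0.099), Asph (-0.59 ± 0.079) and Hrc (-0.49 ± 0.12) were lower and Jph2 (0.60 ± 0.15) higher at 24 h relative to 6 h, where 6.06% of all genes were lower and 5.58% higher. With scaling by library total, Atp2a2 (-0.31, edgeR FDR = 0.025) and Hrc (-0.40, edgeR FDR = 0.012) lost their calls and Slc8a1 gained one (0.37, edgeR FDR = 0.0015). Fits of the compared groups alone added Casq2 (-0.26), Slc8a1 (0.28) and Trdn (-0.45).

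Ratios of 2 genes within a library do not depend on how libraries are scaled, and 8 were compared in the 6 drug comparisons by 2-sided exact permutation tests adjusted over the 48. Of these, 30 passed at an adjusted p below 0.05. The smallest p possible was 0.0022 with 6 against 6 libraries and 0.00058 with 7 against 7 or 6 against 7. On the uptake side, the ratio of Pln to Atp2a2, brake to pump, was lower at 6 h and higher at 24 h in both 5FU and Dox. At 6 h the log2 ratio differed from control by -0.76 in 5FU (exact permutation, adjusted p = 0.0049) and -0.79 in Dox (adjusted p = 0.0031), with no overlap in either. At 24 h it differed by 0.41 in 5FU (exact permutation, adjusted p = 0.025, overlapping) and 0.38 in Dox (adjusted p = 0.0031, not overlapping). In Ace it was lower at 6 h (-0.30, exact permutation, adjusted p = 0.0073) and -0.0013 at 24 h.

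The exchanger changed relative to the pump as well. The ratio of Slc8a1 to Atp2a2 was lower at 6 h in 5FU (-0.79), Ace (-0.16) and Dox (-0.27), and higher at 24 h in 5FU (0.93) and Ace (0.52), each with an exact permutation adjusted p of at most 0.015. Where both genes were at their lowest, in Dox at 24 h, it was -0.13 (exact permutation, adjusted p = 0.059). The ratio of Sln to Atp2a2 was higher at 24 h in 5FU (0.83) and Dox (1.12), both groups overlapping their control. Atp2a2, the divisor of these ratios, was itself 11.2 times lower in Dox, 2.49 times in 5FU and 1.35 times in Ace at 24 h. A gene that fell less than Atp2a2 would therefore also give a higher ratio. Pln, Slc8a1 and Sln were not called higher at 24 h in any drug.

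On the release side, the ratios of the channel's partners to Ryr2 were higher in Dox at 24 h. The ratio to Ryr2 was 10.1 times the control ratio for Casq2 (log2 3.33), 12.4 times for Asph (3.64), 4.19 times for Trdn (2.07) and 3.93 times for Jph2 (1.97). For Fkbp1b, which encodes the calstabin bound to the channel, it was 20.3 times (4.34). In all 5 the groups did not overlap (exact permutation, adjusted p = 0.0031). The same 5 ratios were higher in 5FU at 24 h, by log2 0.80 for Casq2, 1.19 for Trdn, 0.94 for Jph2, 0.95 for Asph and 1.21 for Fkbp1b (exact permutation, adjusted p = 0.0049), again without overlap. In Ace at 24 h, Jph2 (0.45) and Fkbp1b (0.40) passed, and Casq2, Trdn and Asph lay between -0.071 and -0.02. Ryr2, the divisor of all these ratios, was itself 13.7 times lower in Dox and 2.84 times lower in 5FU at 24 h. A gene without change would therefore also give a higher ratio, and 0 of the 10 members were called higher in those comparisons. Fkbp1b is not one of the 10, and its own change is not given here. In Dox its log2 ratio rose by more (4.34) than Ryr2 fell (-3.78).

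**Figure D3:**
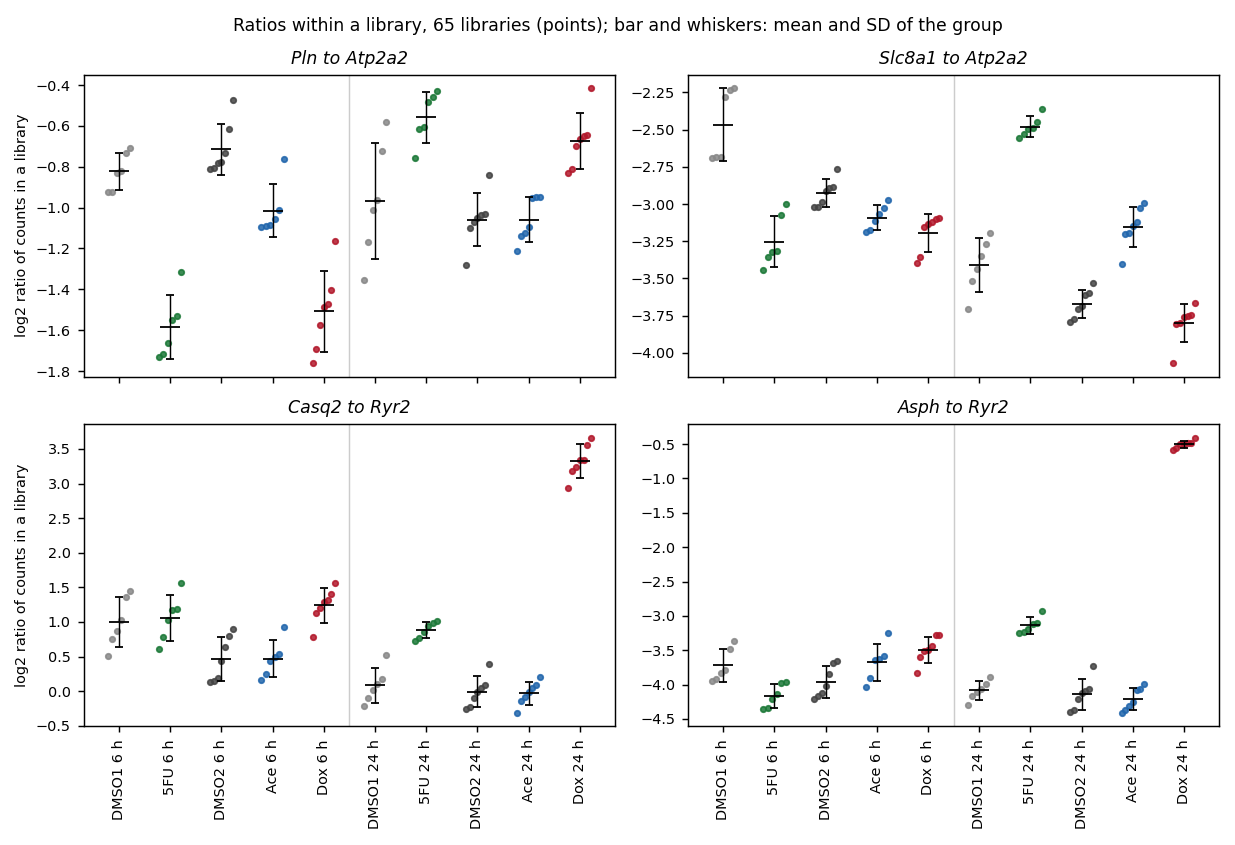
Log2 ratio of counts within each of the 65 libraries (y axis, 1 point per library, bar and whiskers for the group mean and SD) for Pln and Slc8a1 over Atp2a2 and for Casq2 and Asph over Ryr2. Pln to Atp2a2 lies below the control at 6 h and above it at 24 h in 5FU and Dox, and Casq2 and Asph to Ryr2 are highest in Dox at 24 h.

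The cardiomyocyte markers themselves changed. Of the 9 in the table, 8 were called lower in Dox at 24 h (median log2 -1.80), from Myh6 (-4.13), Actc1 (-3.89) and Ldb3 (-3.42) to Tnnt2 (-0.21), with Myl3 (0.13) not called. In 5FU at 24 h, 3 of 9 were lower and 1 higher (median -0.16), and in Ace at 24 h 1 of 9 was lower (median -0.027). Of all genes at 24 h, 41% were called lower in Dox, 27.8% in 5FU and 19.1% in Ace, and 28% were higher in 5FU. Each member was therefore also set against the mean log2 level of the 9 markers in the same library, in 60 exact permutation tests of which 36 passed. Relative to them, Ryr2 (-1.81), Hrc (-1.69), Slc8a1 (-1.64), Atp2a2 (-1.51) and Pln (-1.13) were lower in Dox at 24 h than in its control, while Casq2 (1.52) and Asph (1.83) were higher (exact permutation, adjusted p = 0.0017 for each). Jph2 (0.17), Trdn (0.26) and Sln (-0.39) did not pass, and without Myh6 among the markers the first 2 changed sign (-0.10 and -0.0078) while Sln passed (-0.66, exact permutation, adjusted p = 0.021). The reference itself fell in Dox at 24 h, so a gene without change would also be higher relative to it. Against DMSO2 directly, Casq2 was lower (-0.44) and Asph was not called (-0.14).

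For 5FU at 24 h the fall relative to the markers was largest for Ryr2 (-1.21) and Atp2a2 (-1.02), followed by Pln (-0.61) and Casq2 (-0.41), all at an exact permutation adjusted p of 0.0046. Jph2 (-0.27) and Asph (-0.26) also passed, the latter not in 5 of the 12 fits without 1 library (any of DMSO1 libraries 2 to 6). Hrc was higher (0.11, exact permutation, adjusted p = 0.015) but not without Myh6 (0.040, adjusted p = 0.46). In Ace at 24 h, where the markers hardly moved, the 8 genes called lower were lower relative to them too, from Sln (-0.58) and Hrc (-0.53) to Ryr2 (-0.33). At 6 h in Dox the markers were called higher in 5 of 9 (31.5% of all genes) and lower in 2 (32.7%). Relative to them, Pln (-1.14), Jph2 (-0.67), Slc8a1 (-0.62), Hrc (-0.56), Ryr2 (-0.54) and Atp2a2 (-0.35) were lower and Casq2 (0.24) higher. Here the reference rose, so a gene without change would also be lower relative to it. Against DMSO2 directly, Atp2a2 was not called (-0.14, edgeR FDR = 0.071). Pln, Jph2, Slc8a1, Hrc and Ryr2 were called lower directly and Casq2 higher.

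Markers of other cell types changed with the drugs. All 8 fibroblast markers were called lower at 24 h in each drug (medians -1.38 in 5FU, -1.26 in Ace and -2.30 in Dox), and their summed level did not overlap between drug and control, at 5166 to 5837 CPM in 5FU against 9972 to 19900.0 CPM, and 7250.0 to 9277 CPM in Ace against 15100.0 to 18890.0 CPM. All 5 endothelial and all 6 macrophage markers in the table were also called lower in Dox at 24 h. Of all genes at 24 h, 27.8% were called lower in 5FU, 19.1% in Ace and 41% in Dox, where 40.4% were called higher. None of the markers in the table of any of these types was at 0 in a whole group. Markers of smooth muscle and pericytes were called higher in 2 of 5 and lower in 2 in Dox at 24 h, with log2 fold changes from -3.35 to 3.05, and those of skeletal muscle higher in 2 of 4 and lower in 2, from -2.31 to 6.09. Some markers had few counts in a library, with 0 to 559 for Actn3 and 3 to 34 for Tnnt3 (skeletal muscle) and 0 to 16 for Cd163 (macrophage). Of 3 ventricular markers, 1 was lower (-3.47). The part of changed cell shares in the calcium gene values was not tested.

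**Figure D4:**
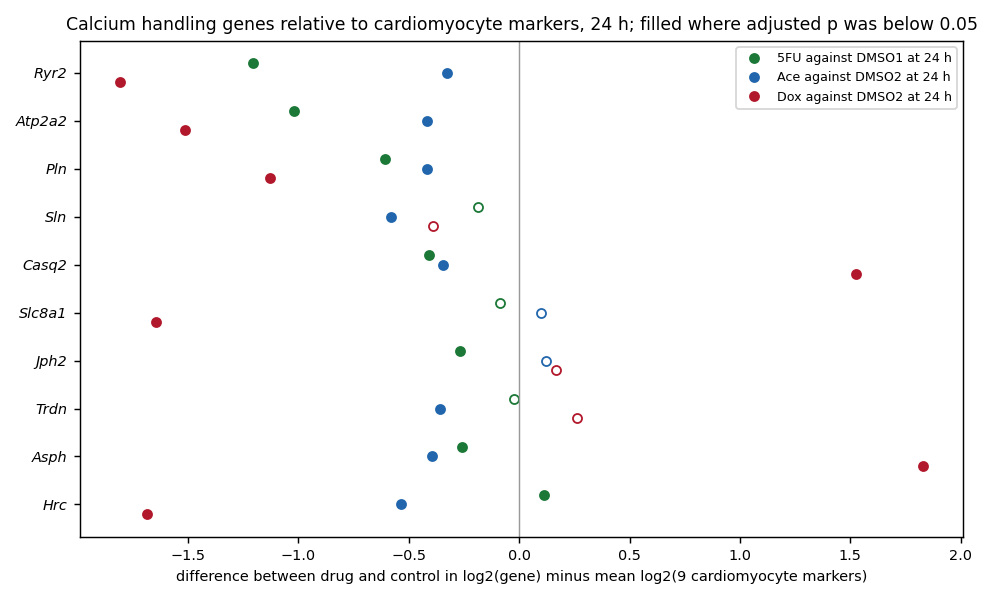
Difference between drug and control at 24 h (x axis) in the log2 level of each gene minus the mean log2 level of 9 cardiomyocyte markers in the same library. Points are filled where the exact permutation adjusted p was below 0.05. In Dox, Ryr2, Atp2a2, Pln, Slc8a1 and Hrc lie below -1 and Casq2 and Asph above 1.

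Differences between the drugs were tested directly. At 24 h, the Dox and 5FU effects differed in 9 of 10 genes (background 71.1% in either direction). Dox gave the lower value for Hrc (-3.45), Slc8a1 (-3.23), Ryr2 (-2.27), Pln (-2.20), Atp2a2 (-2.17), Sln (-1.79), Trdn (-1.38) and Jph2 (-1.24), and the higher value for Asph (0.41). Casq2 (0.26) did not pass (edgeR FDR = 0.029), but did with scaling by library total (0.31, edgeR FDR = 0.0028) and in the DESeq2 Wald test (0.30, adjusted p = 0.0091). Dox and Ace, on the same control, also differed in 9 of 10 at 24 h (background 80.6%), again with Asph higher in Dox (0.29), the other 8 lower (-3.68 for Slc8a1 to -1.30 for Trdn) and Casq2 (-0.067) not passing. The Ace and 5FU effects differed in 6 of 10 (background 37.3%), with the smaller decrease in Ace for Ryr2 (1.15), Atp2a2 (0.88), Jph2 (0.65), Pln (0.45) and Slc8a1 (0.44), and a larger one for Hrc (-0.39). The Hrc difference was lost in 7 of 26 fits without 1 library (5FU library 1 or 4, Ace library 1 or 6, DMSO1 library 3, DMSO2 library 5 or 7; -0.39 to -0.35) and with scaling by library total (edgeR FDR = 0.026). Casq2, not called between Ace and 5FU, passed with that scaling (edgeR FDR = 7e-04), with the compared groups only (edgeR FDR = 0.00065) and in the DESeq2 Wald test (adjusted p = 0.0095).

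At 6 h fewer members differed between drugs, as did fewer of all genes. In each pair of drugs the share of the members lay below that of all genes. The Dox and 5FU effects differed in 4 (background 45.9%), namely Asph (0.64), Casq2 (0.47), Slc8a1 (0.27) and Hrc (-0.42). Of these, Slc8a1 was lost in 15 of 26 fits without 1 library (0.23 to 0.28). Both Slc8a1 and Hrc were lost when only the compared groups were fitted. The 2 effects rest on different vehicles, and Casq2 was itself higher in DMSO1 than in DMSO2 at 6 h (0.39). Its mean level was 1240 CPM in Dox and 1179 CPM in 5FU, against 904.5 CPM in DMSO2 and 1189 CPM in DMSO1. Asph, Slc8a1 and Hrc were not called between the vehicles at 6 h. The part of the vehicles in these differences was not tested. Dox and Ace differed in 5 (background 62.1%), Casq2 (0.57), Trdn (0.32), Pln (-0.57), Hrc (-0.26) and Slc8a1 (-0.19). Hrc and Slc8a1 were lost in the DESeq2 Wald test (adjusted p = 0.021 and 0.025) and Trdn with scaling by library total (edgeR FDR = 0.064). These 3 were each lost in 6 or 7 of 13 fits, so that the count was 3 without Ace library 1 or 2 or Dox library 1, 5 or 7 and 2 without Ace library 4. Ace and 5FU differed in 2 (background 30.9%), Asph (0.67) and Slc8a1 (0.46), both lower in 5FU.

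Around these 10, a list of 92 further genes of calcium handling was read in 6 roles, of which 85 were in the table. Of these, 43 were called lower (50.6%, against 41% of all genes) and 28 higher (32.9% against 40.4%) in Dox at 24 h, with a list median of -0.17. 5FU at 24 h lowered 35 (41.2% against 27.8%) and raised 17 (20% against 28%), with a median of -0.20. Ace at 24 h lowered 20 (23.5% against 19.1%) and raised 17 (20% against 18.2%), with a median of -0.051, so both shares lay near those of all genes. At 6 h the list was called lower in 35.3% and higher in 17.6% in 5FU (all genes 24.5% and 23.4%), in 17.6% and 15.3% in Ace (15.2% and 16.5%), and in 35.3% and 36.5% in Dox (32.7% and 31.5%). Release and junction genes were called lower in 14 of 26 (53.8%) and higher in 10 (38.5%) in Dox at 24 h. No difference between roles, or between a role and all genes, was tested. Speg, a kinase that phosphorylates junctophilin 2 and SERCA2, fell 11.6 times (-3.54, edgeR FDR = 2.9e-40), and Calm2, which encodes calmodulin, rose 4.02 times (2.01). In 5FU at 24 h the same role had 16 lower (61.5%) and 4 higher (15.4%), with Itpr2, an inositol trisphosphate receptor, at -1.37 (edgeR FDR = 1.7e-14), and in Ace 8 lower (30.8%) and 7 higher (26.9%), with Camk2a (-0.80) and Clic2 (-0.78) lower. Itpr1 was higher in Ace at 6 h (0.65), and Casq1, the skeletal calsequestrin, in Dox at 6 h (1.05).

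Of the 11 other genes of uptake and the SR lumen, 8 were lower (72.7%, against 41% of all genes) and 1 higher (9.09% against 40.4%) in Dox at 24 h, with the anchoring protein gene Akap6 11.6 times lower (-3.53, edgeR FDR = 2e-40). Akap6 was also among the largest decreases of the list in Ace at 6 h (-0.77). Ppp1r1a, an inhibitor of protein phosphatase 1, was higher in 5FU at 24 h (0.70), and Ppp1r3a, which targets that phosphatase, lower in 5FU at 6 h (-1.23). Of 21 sarcolemmal genes, 12 were lower (57.1%) and 4 higher (19%) in Dox at 24 h. Cacnb1, a calcium channel beta subunit, rose 2.82 times at 6 h and 15.5 times at 24 h in Dox (log2 3.95 at 24 h). The small GTPase genes Rrad and Rem1, inhibitors of the same channel, fell 7.72 and 6.58 times in Dox at 6 h (-2.95 and -2.72), and Rem1 fell in 5FU at 6 h (-1.18) and 24 h (-1.28) and in Ace at 6 h (-1.07).

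Among genes of store-operated entry, mitochondrial uptake and calcineurin, 3 of 9, 4 of 12 and 2 of 6 were lower in Dox at 24 h and 4, 5 and 4 higher. Those are 33.3% lower in each, beside 41% of all genes, and 44.4%, 41.7% and 66.7% higher, beside 40.4%. Orai1, the pore of store-operated entry, was higher in 5FU at 24 h (0.83) and in Ace at 6 h (0.998) and 24 h (0.63). In 5FU at 6 h, the mitochondrial uniporter genes Mcur1 (0.70) and Smdt1 (0.52) were the largest increases of the list among genes with a mean count of at least 100.

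**Figure D5:**
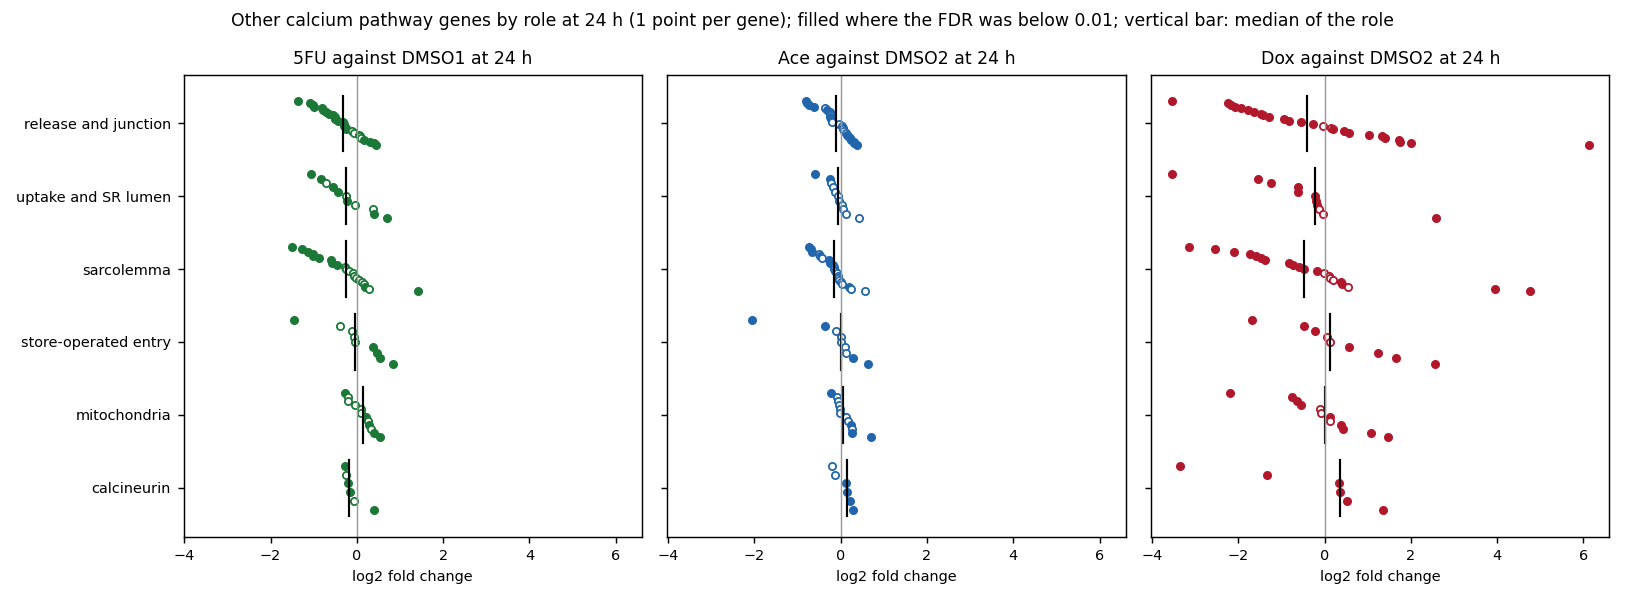
Log2 fold change at 24 h (x axis) of the 85 other calcium genes by role, 1 point per gene, filled where the edgeR FDR was below 0.01, with a vertical bar for the median of the role. In Dox the points spread from below -3 to above 6 in the release role, whose median is -0.41. Among called genes with a mean count of at least 100, the largest increases in Dox were Cacnb1 (3.95) and Calm2 (2.01). The point above 6 is not among those genes.

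Among 10500 named genes whose mean count reached 100, the nearest profile over the 10 group means was sought for each member, as the root mean square difference in log2 level after centring. It was Hhatl for Hrc (0.12), Rtn2 for Trdn (0.12), Col4a2 for Casq2 (0.12), Cenpv for Asph (0.12), Slc25a13 for Sln (0.14), Arap3 for Pln (0.18), Rgs5 for Atp2a2 (0.20), Slc16a3 for Jph2 (0.21), Popdc3 for Ryr2 (0.23) and Cux2 for Slc8a1 (0.27). Over the same 10 points, which share controls and are dominated by Dox at 24 h, Ryr2 and Atp2a2 were the closest pair of members (0.19) and Slc8a1 and Asph the farthest apart (1.22).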

How the data were processed

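PolyA RNA of 65 cultures was sequenced in paired reads. According to the paper and labels, the authors assigned reads to rat transcripts (Ensembl) with kallisto 0.46.0 and summed them to Entrez genes with tximport. They deposited estimated counts, whole numbers without normalization, after removing genes with low counts, so genes absent from the table were not analysed here.

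Symbols came from RefSeq (GRCr8), which matched 14009 of 14554 identifiers. Library totals of 14332827 to 25738297 counts put at least 10 counts in every library for 11908 genes. Counts were scaled by TMM (factors 0.859 to 1.07) and fitted in edgeR 4.0.16 (R 4.3.3, limma 3.58.1; glmQLFit, glmQLFTest) in 1 model of 10 groups. The filter of 10 counts in at least 1 library removed 0 genes, and calls were made at a Benjamini-Hochberg FDR below 0.01 over all genes. SEs are the log2 fold change divided by the root of F. Within-library ratios and marker-relative levels were tested by 2-sided exact permutation. No 2 libraries of a group agreed within sampling noise, with a chi-square per gene of at least 2.976 over 180 pairs. The count test was checked on simulated counts in which a small share of genes was changed, evenly up and down. That check does not cover a comparison such as Dox at 24 h, where 40.4% of genes were called higher and 41% lower. The alternatives were other scalings, filters and thresholds, DESeq2 1.42.0, fits of the compared groups only, and each library left out.

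Named genes are the 10 members, the 2 largest increases and 2 largest decreases of the pathway list among called genes whose mean count reached 100, and each member's nearest profile, of which 1 gene is not reported here. Members and lists were chosen with earlier results of these data known.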

Additional observations from a re-analysis of the deposited data

Results flagged for a closer look

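For 9 of 100 gene and group pairs, 1 library lay far from the others of its group by Dixon's test, where chance gives about 1 in 20. The highest library of Ace at 24 h, number 7, was at 5226 CPM for Atp2a2 (next 3995) and at 2253 CPM for Pln (next 1945). In Dox at 6 h, the lowest Sln library, number 4, was at 2.63 CPM (next 4.15) and the lowest Jph2 library, number 7, at 80.2 CPM (next 136). Asph was at 47.1 CPM in library 1 of DMSO1 at 24 h (next 62) and at 66.9 CPM in library 7 of Dox at 24 h (next 61.2), both libraries that also lay far from their group over all genes. Casq2 was at 1152 CPM in library 4 of DMSO1 at 24 h (next 1081). Hrc was at 162.0 CPM in library 3 of DMSO1 at 24 h (next 178) and at 126 CPM in library 3 of DMSO1 at 6 h (next 98.8).

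For 18 pairs of gene and drug, the effect at 24 h differed from that at 6 h in the edgeR test of the difference. For 5FU the differences in log2 fold change were -1.45 (Ryr2), -1.43 (Atp2a2), -0.69 (Casq2) and 0.30 (Slc8a1). For Ace they were -0.39 (Atp2a2), 0.60 (Jph2), -0.59 (Asph) and -0.49 (Hrc). For Dox they were -3.44 (Ryr2), -3.35 (Atp2a2), -2.18 (Pln), -2.46 (Sln), -0.89 (Casq2), -3.20 (Slc8a1), -1.39 (Jph2), -2.07 (Trdn), -0.28 (Asph) and -3.30 (Hrc).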

How the results depend on the processing

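No paired analysis was possible because the columns of the count table carry no replicate numbers. Over the 6 drug comparisons, 398 of 420 member fold changes under another setting kept their direction and their side of the threshold. Without 1 library, 745 of 790 did so. The other settings include a fit without a filter. Since the main filter removed 0 genes, that fit repeats the main one and its values could not change. Requiring a log2 fold change of at least 1 left 0 members in 5FU, Ace and Dox at 6 h, in Ace at 24 h, between vehicles at 6 h, between times in the controls, in the Ace time difference and in each pair of drugs at 6 h, 2 in 5FU at 24 h and its time difference, and 1 between Ace and 5FU at 24 h. An FDR below 0.1 gave 1 between vehicles at 24 h and 7 each in the 5FU and Ace time differences and between Dox and 5FU at 6 h. DESeq2 gave 1 between vehicles at 24 h, and fits of the compared groups gave 7 in the Ace time difference, 2 between Dox and 5FU and 3 between Dox and Ace at 6 h, a count that ran from 2 to 5 without 1 library.

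None of the values that changed sign was called before or after the change. Casq2 in 5FU at 6 h was 0.00049 under DESeq2 size factors and the Wald test, which put the Jph2 time difference of 5FU at -0.0062 and -0.0060 and Asph between Dox and Ace at 6 h at 0.011 and 0.011. Library totals alone gave Asph -0.013 in Dox and -0.0095 between vehicles at 6 h, Slc8a1 0.0099 between vehicles at 24 h, Asph 0.011 in the 5FU time difference and Jph2 -0.027 between Dox and Ace at 6 h. Without Dox library 7 and DMSO1 library 1 at 24 h, a choice made after seeing the data, Slc8a1 was 0.0027 between vehicles at 24 h and the Jph2 time difference of 5FU was -0.039, against -0.010 with the compared groups only. Markers without Myh6 put Atp2a2 in Ace at 6 h at 0.028, and Jph2 and Trdn in Dox at 24 h at -0.10 and -0.0078.

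Without 1 library, 5FU at 6 h spanned -0.086 to 0.067 for Casq2 and -0.11 to 0.065 for Trdn, the Jph2 time difference of 5FU -0.081 to 0.11, and Ace minus 5FU at 6 h -0.14 to 0.0028 for Ryr2, -0.0016 to 0.18 for Trdn and -0.016 to 0.16 for Jph2. Log2 ratios spanned -0.040 to 0.15 (Casq2 to Ryr2) and -0.069 to 0.14 (Trdn to Ryr2) in 5FU at 6 h, -0.039 to 0.035 (Pln to Atp2a2), -0.061 to 0.048 (Casq2 to Ryr2) and -0.086 to 0.065 (Trdn to Ryr2) in Ace at 24 h, and -0.089 to 0.076 (Casq2 to Ryr2) in Ace at 6 h. Levels relative to markers spanned -0.099 to 0.11 (Trdn), -0.043 to 0.038 (Casq2) and -0.13 to 0.011 (Ryr2) in 5FU at 6 h, -0.047 to 0.016 for Atp2a2 in Ace at 6 h, -0.051 to 0.023 for Trdn in 5FU at 24 h and -0.12 to 0.071 for Sln in Dox at 6 h. The cause was not tested. Depth limits Sln, with 8 to 104 counts.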
